A study of Drosophila melanogaster with 3 samples.

Results

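The Myc peaks described here lie in the sequence of Drosophila melanogaster that flanks the centromeres and in the sequence that release 5 of the genome sets apart as heterochromatin. They were chosen by position alone: every peak on the heterochromatin scaffold sets 2LHet, 3LHet, 3RHet, XHet and YHet and on chromosome 4, and on the large arms every peak that starts at or above position 21000000 of 2L, 22380000 of 3L or 20420000 of X, or at or below 2000000 of 3R. This rule gave 309 of the 9897 peaks in the list (3.12%). The arm positions were set with the peak positions known, so the number of peaks that they enclose is a description. The comparison set was the 496 peaks on the rest of 2L, 3L, 3R and X, called distal peaks below.

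The peaks come from 2 ChIP samples and 1 input sample of Kc167, an established embryonic cell line labelled female, of genotype se/e and at a late embryonic stage, with no treatment named in the labels. In the ChIP samples, chromatin fixed for 15 min in 1.8% formaldehyde was precipitated with a rabbit polyclonal antibody to residues 46 to 507 of Myc, the product of the gene dm. The input is chromatin of the same line that was not precipitated. All of them gave rise to 1 list for the whole series, in which each peak carries 1 score set by the authors' peak caller on a scale that no source names. The score is used only to order peaks within this list. No value exists per ChIP sample, so no replicate error, depth or test between samples can be given, and each difference below is a description of 1 list; intervals are exact 95% intervals that cover only the counting of peaks. The list holds no expression values, so the identity of the line was not checked against marker genes, and no annotation of release 5 was at hand to check the heterochromatin label of the scaffolds.

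Myc is a basic helix-loop-helix transcription factor that pairs with Max and is known for driving genes of growth, ribosome production and cell-cycle entry. Pericentromeric heterochromatin is compact, rich in satellite DNA and transposable elements and poor in genes, although some essential genes lie within it. On 2L, near the pericentromeric region, stands the cluster of replication-dependent histone genes, a tandem array in which a unit with the genes for the linker histone H1 and the core histones H2A, H2B, H3 and H4 is repeated many times. These genes are transcribed during DNA replication from a nuclear structure called the histone locus body.

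The 309 peaks were spread unevenly. The 2L segment held 101 of them, of which 83 stood in 1 dense run, X held 43, 3L held 31 and 3R only 9. The scaffold sets 3RHet and 3LHet held 57 and 56. Chromosome 4 held 6 peaks, XHet 3, YHet 2 and 2LHet 1. Peaks close together can be parts of 1 enriched region, so peaks were also joined into loci where the gap between them was under 3000 bp. This gave 106 loci, 58 of which were single peaks, against 233 loci in the distal set, 141 of them single.

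Counted as loci, the segments next to the centromere were denser than the rest of their arm on X, 3L and 2L, and not on 3R. The X segment had 9.49 loci per Mb (exact Poisson 95% interval 5.71 to 14.8) against 3.18 (2.46 to 4.06) on distal X. The 3L segment had 5.50 per Mb (2.74 to 9.83) against 2.59 (1.97 to 3.35) on distal 3L. The 2L segment had 4.98 per Mb (2.39 to 9.15) against 2.57 (1.93 to 3.36), so its interval and that of distal 2L overlap, and the same holds for 3L. The 3R segment had 2.00 per Mb (0.545 to 5.12) and distal 3R had 2.17 (1.64 to 2.82). Because the limits were set with the positions known, these densities and intervals describe the segments and support no difference. The 2 large scaffold sets were near the X segment: 3LHet had 11.3 loci per Mb (7.46 to 16.5) and 3RHet 10.2 (6.60 to 15.0), with intervals that overlap that of X. The lengths of the 2L, 3L and X segments, the scaffold sets and distal 3R ended at the last peak. They can fall short of the true ones, which would make those densities too high. The 3R segment was counted at its full 2000000 bp, and distal 2L, 3L and X up to the limit. Positions on a scaffold set can run across scaffold ends.

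On 2L the difference in peak number came mostly from the run. With it the segment had 50.3 peaks per Mb, and without it 18 peaks remained, or 8.96 per Mb, against 6.38 per Mb on distal 2L. Those 18 peaks were narrow and low, with widths of 201 to 594 bp and scores of 7.10 to 15.49.

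Peaks in this sequence had the widths of distal arm peaks, below those of the list as a whole, and few high scores. The median width was 393 bp (95% interval 357 to 417 bp) against 382.5 bp (360 to 410 bp) for distal peaks and 531 bp for the whole list, and the median score was 13.98 (13.27 to 15.26) against 13.465 (12.61 to 14.27) for distal peaks and 25.1 for the whole list. The member and distal medians each lie within the other set's interval. The highest single score was 102.31 among the members and 88.57 among distal peaks. Counted as loci, the median highest score was 14.74 for the members and 15.66 for the distal set. The shares of peaks with high scores were not alike. A score at or above the upper quartile of the whole list, 33.69, was reached by 21 of the 309 peaks (6.80%, interval 4.26 to 10.2%), by 101 of the 496 distal peaks (20.4%, 16.9 to 24.2%) and by 25.5% of all 9897 peaks. A score at or above the list median of 25.1 was reached by 56 (18.1%, 14.0 to 22.9%), against 147 distal peaks (29.6%, 25.65 to 33.9%) and 50.0% of the list. Without the dense run the share at or above the upper quartile was 7.96% (18 of 226, 4.79 to 12.3%). On the unplaced scaffolds of U and Uextra the same share was 28.9% and 26.2%.

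**Figure D1:**
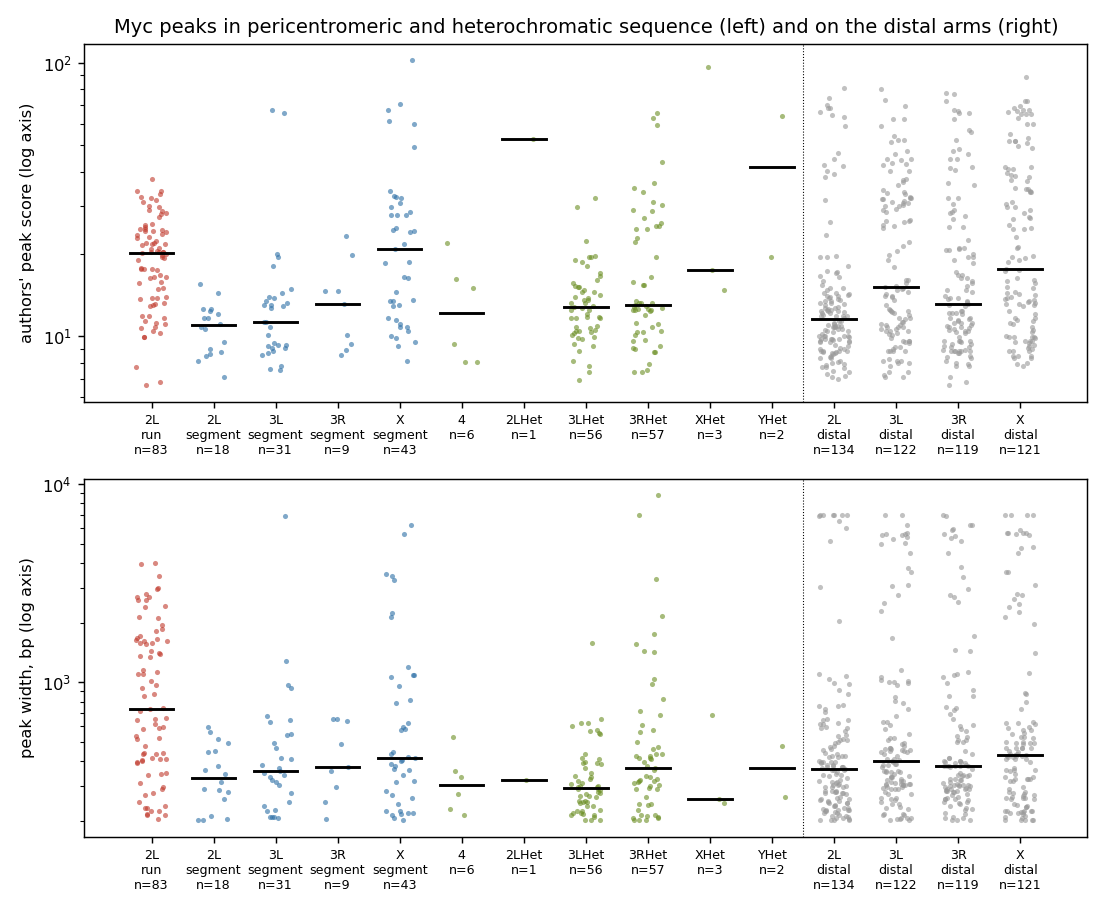
Score (upper panel) and width in bp (lower panel) of each Myc peak, on log axes, by sequence; each point is 1 peak, bars are medians, and the number of peaks stands under each column. Segments next to the centromere are blue, with the dense run of 2L in red, heterochromatin scaffolds and chromosome 4 are green, and distal peaks are grey on the right. The run has a median score of 20.17, near the 20.91 of the 43 peaks of the X segment, yet no peak in it passes 37.68, while the X segment reaches 102.31.

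Width and score went together across peaks: Spearman's rho was 0.662 over the 309 peaks, 0.560 over the 226 outside the run and 0.702 over the distal peaks. The points of each set share 1 list and 1 caller, which sets both values, so these are descriptions without a p. The run was wider than the other members as a set. Its median was 734 bp, and 36 of its 83 peaks were 1000 bp or wider (43.4%, interval 32.5 to 54.7%). Of the other 226 members, 23 were (10.2%, 6.56 to 14.9%). The same share was 18.75% (15.4 to 22.5%) for distal peaks, 2.09% on Uextra and 5.88% for the whole list. On U it was 31.7% (28.3 to 35.3%), with an interval that overlaps that of the run. Peaks of this width were not particular to the run: the X locus at 21558370 to 21575699 held peaks of 3505, 3435 and 2142 bp. The heterochromatin scaffolds were at the narrow end, with a median of 317 bp and 52 of 119 peaks under 300 bp (43.7%, 34.6 to 53.1%). The corresponding share was 31.2% in the distal set.

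The scaffold sets differed among themselves. The 56 peaks on 3LHet were 292 bp wide and scored 12.77 by their medians, the highest score was 32.07, at 2183546 to 2184166, and 2 peaks reached the list median. On 3RHet, with nearly the same number of peaks, the median score was 13.04, but 15 of 57 peaks reached the list median, the highest score was 65.68 and the widest peak spanned 8786 bp. The bulk of both sets thus had similar scores, and 3RHet had a longer upper tail. Each set counts as 1 collection of scaffolds, and this contrast was noticed after the values were seen.

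The 10 highest scores among the 309 were found on X, 3L and the heterochromatin scaffolds, none on 2L or 3R. The highest was 102.31, for the last peak on X (22422284 to 22422903, 620 bp), which ranked 20 in the whole list. The second was 96.96, for the first peak on XHet (57 to 742, 686 bp), which ranked 22. Both are narrow for their score, but the XHet peak starts at position 57, where the sequence end can cut off its width and any neighbour. How far the X peak lies from the end of X is not known here. Next came X 22022366 to 22028586 (6221 bp, score 70.95), 3L 23564770 to 23566048 (1279 bp, 67.43) and X 21406849 to 21407633 (785 bp, 67.09). They were followed by 3RHet 1391095 to 1398091 (6997 bp, 65.68), 3L 22983010 to 22989919 (6910 bp, 65.44) and YHet 137053 to 137527 (475 bp, 63.98). The last in this group were 3RHet 168365 to 177150 (8786 bp, 62.83) and X 21421814 to 21424057 (2244 bp, 61.09). Widths thus ran from 475 to 8786 bp among peaks of like score, and 4 of the 10 were narrower than 1000 bp.

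By count, most members at or above the upper quartile of the list stood alone, whereas most at or above the list median had a neighbour. Of the 309 peaks, 260 (84.1%, interval 79.6 to 88.0%) had another peak midpoint within 5000 bp on the same sequence, against 360 of 496 distal peaks (72.6%, 68.4 to 76.5%), 94.9% of Uextra peaks and 92.1% of the whole list. Outside the run the share was 78.3% (177 of 226, 72.4 to 83.5%), and its interval overlaps the distal one. Because distances ran between midpoints, a peak several kb wide leaves little room for a neighbour. Of the 49 peaks with no neighbour within 5000 bp, 12 reached the upper quartile of the list, close to the 25.5% of all peaks. Of the 177 peaks with a neighbour outside the run, 6 did, and of the 83 peaks of the run, 3. At or above the list median stood 13 of the 49 solitary peaks and 25 of the 177 with a neighbour outside the run. In the run it was 18 of 83, and over the whole list 50.0%. As a share of its group, the solitary set was highest at both bounds, by less at the list median. The median score was 12.94 for solitary peaks and 13.04 for those with a neighbour, so most solitary peaks scored low and a minority scored very high. All but 1 of the 10 highest scores belonged to a solitary peak, the exception being X 21406849 to 21407633. Scores of distal peaks were not split by neighbour, so this pattern is not shown to be particular to the members. Of the 12 high solitary peaks, 5 were narrower than 1000 bp: besides the last peak on X, the first on XHet and the second on YHet they were 3RHet 1599139 to 1599554 (416 bp, score 59.44) and the only peak on 2LHet, 368332 to 368651 (320 bp, 52.67).

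The dense run on 2L covered 21416419 to 21543476, a span of 127058 bp, and peaks covered 74.0% of it. It consisted of 2 stretches separated by 9346 bp without a peak. The first, of 24483 bp, held 20 peaks over 82.1% of its length, and the second, of 93229 bp, held 63 peaks over 79.3%. Apart from that break most peaks stood close together: within the stretches the median gap was 205 bp, 23 of the 81 gaps were under 100 bp and 15 were over 500 bp, the longest 1723 bp. The first stretch had a median score of 19.3, with peaks from 6.66 to 28.86, and the second had a median of 20.17, with peaks from 6.81 to 37.68. The run therefore had a high floor of coverage with no single dominant peak, and 18 of its 83 scores reached the list median.

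**Figure D2:**
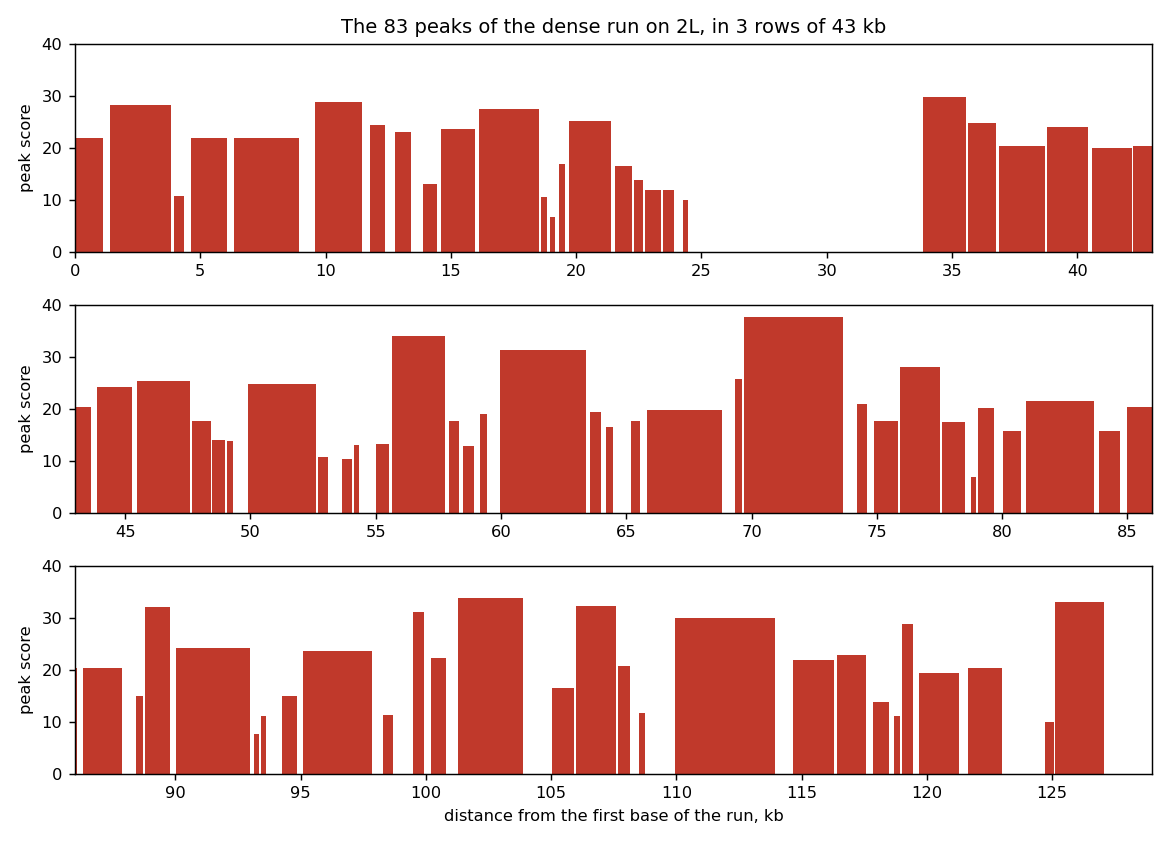
Each of the 83 peaks of the dense run on 2L as a block whose width is the peak's extent and whose height is its score, by distance in kb from the first base of the run, in 3 rows. Most blocks stand close together within each stretch, the break of 9346 bp is in the top row, and the highest block (37.68) is in the middle row.

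The run is the candidate site of the histone gene cluster. A gene table of release 6 lists 111 replication-dependent histone genes on 2L, 23 for H1, 23 for H2B, 20 for H2A, 22 for H4 and 23 for H3, with no protein-coding entry of another kind between the first and the last. The 24 other entries that stand between them were left aside here. Among the histone entries alone, the order H1, H2B, H2A, H4, H3 occurs 19 times, which names the array but does not place it. The positions in that table are not those of release 5, and none of these genes was matched to a peak. The histone genes are named as a candidate in the choice of the peaks and were not tested here.

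Coverage in the run repeated at a distance of 5040 bp. The autocorrelation of covered bases over shifts of 3000 to 8000 bp was highest there, at 0.311, for the whole run. With only the peaks at or above the run's median score, the highest value was 0.188, at 4960 bp. The stretches were then taken separately, a step added after the data were seen. In the second stretch the highest value was 0.364, again at 5040 bp, and it was 0.287 at a shift of 10080 bp, which is the same distance taken again. The second stretch alone holds 18.5 such lengths. In the first stretch, which holds fewer than 5 such lengths, the highest value was 0.147, at 5420 bp, so only the second stretch was cut into units.

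Cut into 18 successive units of 5040 bp from its first base, the second stretch had a core that peaks covered in every unit. At the edges coverage lapsed in some units. Positions 2311 to 2730 of the unit were fully covered in all 18 units, and the bins from 2101 to 2310 and from 2731 to 2940 were covered to 99.4% and 99.8%. A further zone of high coverage lay at 1051 to 1260, at 98.1%. Coverage was lowest from 4411 to 5040, where the 3 bins averaged 47.2%, 53.5% and 41.0%, and from 421 to 840, at 49.1% and 53.3%. Between these 2 dips, a short zone at 211 to 420 was covered to 84.97%. The dips were absent from some units. The bins at 421 to 630 and 631 to 840 were fully covered in 5 and 7 of the 18 units. Units 1, 2 and 3 were among them, with 93.9%, 90.7% and 93.0% of their length covered. Because the unit length was taken from the same coverage, some contrast between bins is built in, and the positions count from the first peak of the stretch and not from any gene.

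**Figure D3:**
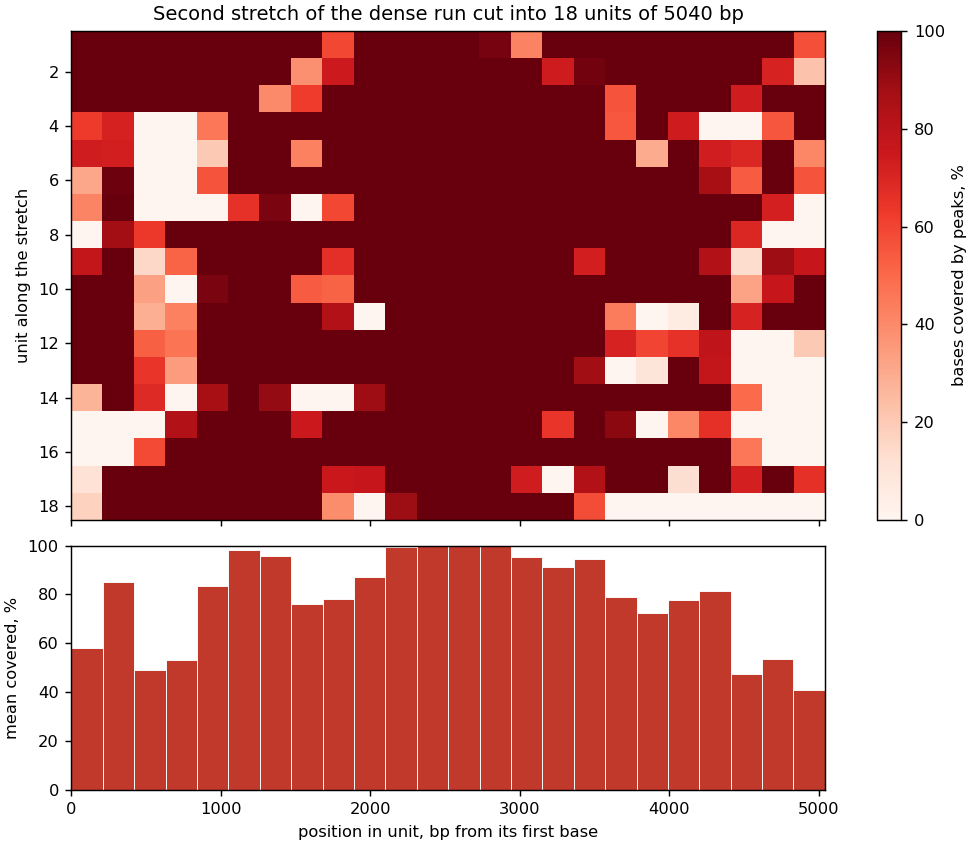
Share of bases covered by Myc peaks in the second stretch of the dense run, cut into 18 units of 5040 bp. Rows of the upper panel are units in order, columns are bins of 210 bp, and the lower panel gives the mean over units in percent; the core at 2311 to 2730 is covered in every unit, and the bin at 4831 to 5040 averages 41.0%.

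The widest peaks of the second stretch sat over that core. All 11 peaks of 2000 bp or more had their midpoint between positions 1500 and 3500 of the unit, with a median of 2610, whereas 8 of the other 52 did. The bounds of this window were chosen after the pattern was seen. The wide peaks also supply part of the coverage that marks the core. Where a wide peak spans the core, little room is left there for the midpoint of another peak. The contrast between wide and other peaks is therefore partly built in, and these counts only describe where the wide peaks lie. Wide peaks had a median score of 25.45 and the others 18.39. The highest score per unit, taken over 1 to 5 peaks, ranged from 19.8 to 37.68 with a median of 28.46. The covered share ranged from 58.5% to 93.9% with a median of 79.1%. The least covered unit was the last one, and the most covered was the first.

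Outside the run, 46 loci held more than 1 peak. They contained 168 peaks, with a median of 3 per locus, a median span of 3266 bp and a median of 43.3% of the span under peaks. In 36 of the 46 the highest score stayed under the list median. Most multi-peak loci were thus low and broken. The run was less broken, but in it too most peaks scored under the list median, which 18 of 83 reached. A highest score over a few peaks is not comparable with that of stretches of 20 and 63 peaks.

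A smaller class of loci spanned 6000 to 9000 bp, a range set after the spans were seen. There were 13, or 12.3% of the 106 loci, against 50 of the 233 distal loci (21.5%). Their median highest score was 36.35, and that of the distal loci of this span was 51.03. The 13 were sorted into 3 forms by whether they were a single peak and by a bound of 80% on the covered share. The first form, 4 loci, was a single unbroken peak with a score of 62.83 to 70.95: 3L 22983010 to 22989919, 3RHet 168365 to 177150, 3RHet 1391095 to 1398091 and X 22022366 to 22028586. The 3L peak and the second on 3RHet had nearly equal widths, 6910 and 6997 bp, and nearly equal scores, 65.44 and 65.68.

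The second form, 3 loci, was a nearly closed row of peaks. On 3RHet, 1982247 to 1989533 spanned 7287 bp and held 4 peaks over 92.0% of its length, with a highest score of 36.35. Also on 3RHet, 2047939 to 2055184 spanned 7246 bp and held 5 peaks over 89.5%, with a highest score of 43.39. On X, 21512346 to 21519772 spanned 7427 bp and held 4 peaks over 93.8%, with a highest score of 49.13. The 2 on 3RHet began alike, with a narrow peak of 397 bp in one and 336 bp in the other, and the next peak started at offset 732 in one and 770 in the other. The locus on X showed a narrow peak at its far end, 386 bp wide with a score of 28.60.

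The third form, 6 loci, was a loose chain of peaks, most of them under 1000 bp wide, over 25.8% to 53.6% of the span. An example, chosen after its values were seen, is 3L 24162101 to 24169199, with 8 peaks over 46.1% of 7099 bp and scores of 9.07 to 19.43. The highest score in this form was 25.99, on 3RHet. Loci of almost the same length therefore differed in how high they scored. They also differed in how much of their span was covered, but the forms were sorted by that share.

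**Figure D4:**
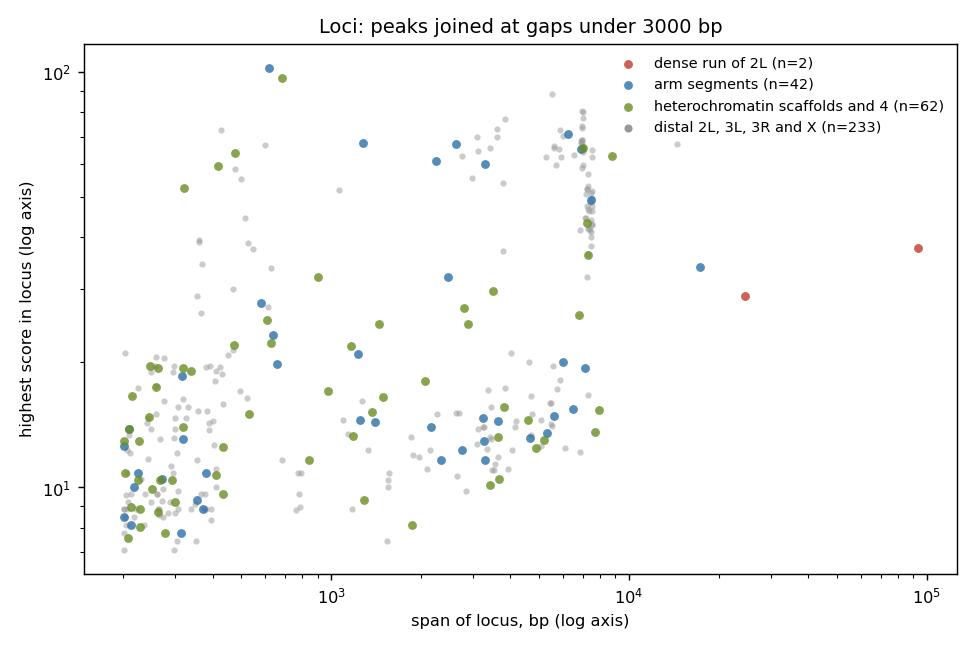
Highest score against span in bp for the 106 loci in pericentromeric and heterochromatic sequence (red, blue and green) and the 233 distal loci (grey), both on log axes; each point is 1 locus of peaks joined at gaps under 3000 bp. Coloured points lie inside the grey column near 7 kb as well as below it, and the 2 stretches of the dense run and 1 locus on X are longer than 14 kb.

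The X segment held 29 of its 43 peaks in 1 region of 310.06 kb, 21342628 to 21652684, when peaks with gaps under 100 kb were grouped, a grouping added after the positions were seen. This region had scores up to 67.09 and a median of 24.43. Within it lay a locus of 17330 bp, 21558370 to 21575699, made of 10 peaks over 88.1% of its length with scores between 21.67 and 33.97. Its outermost peaks were its narrowest and its highest: 380 bp with a score of 33.97 at one end and 416 bp with 32.49 at the other. The only longer loci among the 309 peaks were the 2 stretches of the run on 2L. The fifth widest of the 309 peaks, 5598 bp with a score of 49.13, lay at 21512346 to 21517943 in the same region.

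The remaining sequences carried few peaks. On chromosome 4, whose small arm is banded with heterochromatin along its length yet carries active genes, there were 6 peaks between 434723 and 616211, all 213 to 529 bp wide. Their scores were 21.90, 16.20, 15.00, 9.34, 8.02 and 8.02, each under the list median, and all 6 had a neighbour within 5000 bp. The first pair, at 434723 to 435080 and 435555 to 435885, was the strongest. XHet carried, besides its first peak, peaks at 192332 to 192590 (score 17.50) and 196223 to 196467 (14.82). YHet carried 117262 to 117524 (263 bp, 19.44) and the peak of score 63.98 at 137053 to 137527. The label of the line is female, and whether the reads behind the YHet peaks came from Y sequence was not tested. The first peaks of the larger scaffold sets were low, 10.73 at 57317 to 57728 on 3LHet and 22.05 at 34751 to 35222 on 3RHet. The 3R segment had a highest score of 23.26, at 508248 to 508883, and its first peak, next to the centromere, scored 19.86 at 33424 to 34079. The last peaks of 2L and 3L, at 23008351 to 23008944 and 24381452 to 24381806, scored 12.10 and 9.31. The very high score of the last peak on X thus had no counterpart in the last peaks of 2L and 3L or the first peak of 3R.

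A score held by at least 15 peaks of the list was found for 37 of the 309 peaks (11.97%, interval 8.57 to 16.1%) and 75 of the 496 distal peaks (15.1%, 12.1 to 18.6%), against 70.0% on U (66.4 to 73.3%), 75.3% on Uextra (74.3 to 76.2%) and 68.9% of the whole list. Uextra supplies 83.2% of the list and so largely decides which scores count as recurring, which builds much of this contrast in. In the run it was 1 of 83 peaks, and on 3LHet 17 of 56. The intervals of the 309 peaks and of the distal arms overlap, whereas that of the run (0.0305 to 6.53%) lies below the distal one. The peaks of the run are adjacent pieces of joined loci and not independent, so this separation supports no difference.

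Peaks next to the limits of the rule had low scores, except the one outside the limit on X. Just inside stood 2L 21347697 to 21347954 (score 10.60), 3L 22550184 to 22551121 (18.05), 3R 896998 to 897354 (14.66) and X 20957319 to 20957636 (13.05). Just outside stood 2L 20891956 to 20892357 (14.43), 3L 21747284 to 21747557 (20.49), 3R 2246929 to 2247253 (14.73) and X 19927362 to 19930955 (3594 bp, 69.72). Each limit fell in a space of at least 455 kb without a peak.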

How the data were processed

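The data are a single list of MACS peaks for the series, in FlyBase release 5 positions per the file headers; CASAVA 1.7.0.2 and 1.7.0.3, BWA, MACS2 and BDGP5 are named in the submitters' processing notes. The score of each peak was made by the authors' caller and deposited with no statement of scale. Pooling of ChIP samples, use of the input, handling of reads with several matches and the threshold were not given in the sources used here; in repeated sequence, such handling can set where peaks appear.

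Groups were taken from sample titles. Peaks, gaps, loci, medians with order-statistic intervals, exact binomial and Poisson intervals and the autocorrelation of covered bases (shifts in steps of 20 bp) were computed in Python 3.11.15 with SciPy 1.17.1, NumPy 2.4.6 and pandas 2.3.3, drawn with Matplotlib 3.10.9, and tested on simulated data. Depth per sample is unknown. Named peaks are the 10 highest scores, the highest of each sequence, the 5 widest, all on chromosome 4, XHet and YHet, first and last peaks, and those beside the limits of the rule; others were named after their values were seen. The members and lists were chosen with earlier results of these data known. Genes, motifs and sequences were not analysed here, because the gene table follows release 6.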

Additional observations from a re-analysis of the deposited data

How the results depend on the processing

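No paired analysis was possible because each peak has a single score and no values per ChIP sample; nor could a replicate be left out. Of 49 alternative values, 22 stayed within the interval or 1.5 times the count of the value reported, and 27 did not. At scores at or above the list median, 56 peaks in 36 loci were left, with a median width of 1426 bp, a median score of 32.09, a share with a neighbour of 50.0% and a share of recurring scores of 0%. At or above the upper quartile these values were 21 peaks, 20 loci, 2161 bp, 60.01, 9.52% and 0%; the higher scores follow from the selection. With peaks closer than 500 bp merged there were 177 peaks, and 58.8% had a neighbour, since merging removes the nearest ones. Without the dense run of 2L the median width was 341.5 bp, the median score 13.04 and the neighbour share 78.3%. With heterochromatin scaffolds and chromosome 4 only, the values were 125 peaks, 62 loci, 317 bp, 13.21, 77.6% with a neighbour and 17.6% at recurring scores. With the arm limits 500000 bp nearer the centromere the neighbour share was 79.3%, and with a distance of 2000 bp it was 71.5%. The repeat of 5040 bp was 4960 bp among the higher-scoring peaks of the run and 5420 bp in the first stretch alone, the stretches being settings added after the data were seen; the cause was not tested. Gene names beside peaks, planned for an annotation of release 5, were not run. Unknown depth and the lack of values per sample limit every result.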

Other observations

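Some peaks had the same width and the same score as a peak elsewhere in the list. This was so for 14 of the 309 peaks (4.53%, exact 95% interval 2.50 to 7.49%), against 23 distal peaks (4.64%) and 15.6% of the whole list, and for 13 of the 14 a match lay on U or Uextra. U holds 7.13% of the list and Uextra 83.2%, so most peaks that could match lie there, and this count sets the members apart in no way. The 14 peaks were 201 to 397 bp wide. The 1 match between members joined 3L 24105811 to 24106019 with 3LHet 869818 to 870026, both 209 bp wide with a score of 13.83, and 1 peak on U and 1 on Uextra had these values too. None of the 83 peaks of the dense run had such a match. Whether matching peaks share sequence was not tested.

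On 3LHet, 6 peaks stood within 3.506 kb at 299179 to 302684, with scores of 13.60 to 29.80 and a median of 19.14, above the median of 12.77 for that scaffold set. They were singled out after their values were seen.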
